A study of Mus musculus with 6 samples.

Results

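The core proteins of small nucleolar ribonucleoproteins (snoRNPs) and of Cajal bodies are described here in mouse bone marrow stromal cells grown in culture, which can give rise to bone-forming osteoblasts and to fat cells. The 10 genes are Fbl, Nop56 and Nop58 of the C/D box particles, Dkc1, Nhp2, Gar1 and Nop10 of the H/ACA box particles, and Nolc1, Coil and Npm1 of the Cajal body and the nucleolus. Each gene was read from its own probe set, the one with the highest mean over the 6 arrays where there were several, and all 10 were found among 19938 genes. The list was drawn up with the differences between the genotypes in view, so for these 10 genes the differences are given as a description. Counts of calls among them come from the fit over all genes and are no test of these genes. The other gene lists below were also chosen with earlier results of these data known, so their called shares are descriptions too.

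The cells came from C57BL/6 mice, 6 months old. The genotypes were wild type (WT) and a knockout of miR-188 (KO), as labelled, and each genotype gave 3 biological replicates on 1 Affymetrix array each. All 6 cultures were kept in an adipogenic medium. It held insulin at 5 µg/ml, dexamethasone (a glucocorticoid) at 1 µM, IBMX (isobutylmethylxanthine, which blocks phosphodiesterases) at 0.5 mM and 10% fetal calf serum. By its title, the study concerns miR-188 and the switch with age from making bone cells to making fat cells. The labels do not say whether each replicate came from its own mouse, how the deletion was made or how long the induction lasted, so a p-value here weighs a difference against the spread of these cultures, which may be technical.

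A snoRNP pairs a guide RNA with a fixed set of proteins. C/D box particles methylate the ribose of target nucleotides in ribosomal RNA, with fibrillarin (Fbl) as the methyltransferase and the paired scaffold proteins NOP56 and NOP58 holding it on the guide. H/ACA box particles turn uridine into pseudouridine, with dyskerin (Dkc1) as the enzyme and NHP2, GAR1 and NOP10 as its partners, and the same proteins sit on telomerase RNA. Cajal bodies, built on coilin (Coil), are nuclear bodies where related guides modify spliceosomal RNAs, NOLC1 moves between them and the nucleolus, and nucleophosmin (Npm1) is an abundant nucleolar protein and histone chaperone.

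The probe set of Mir188, the targeted gene, read 7.22, 7.27 and 7.38 in WT and 7.22, 7.22 and 7.13 in KO, a difference of -0.10 (SE 0.05, adjusted p = 0.348, limma). These levels are close to the background level given next and the extent of the deletion is not stated, so the probe set neither bears out nor contradicts the genotype labels. Arrays of both genotypes had close medians, between 7.19 and 7.23 on the log2 scale. All 10 genes lay above a background level of 6.83, set at the 95th percentile of 1027 olfactory receptor genes (expressed by sensory neurons of the nose), as did 13090 genes in all. Of 11 stroma markers with a probe set, 10 lay above that level, Col1a1 and Col1a2 among them, while the leptin receptor gene Lepr did not. Of the 11, 4 fell (Col1a1 by 0.28, Col1a2 by 0.30, Nt5e by 0.28 and Cd44 by 0.24), and 2 rose (Pdgfra by 0.26 and Pdgfrb by 0.14), with a median of -0.01. Of 7 adipocyte markers 5 lay above background, 3 fell and none rose, with a median of -0.06. Adipoq, which encodes adiponectin, was at 5.28 in WT and 5.22 in KO. The called share was 54.5% of the stroma markers and 42.9% of the adipocyte markers, against 7.31% of all genes. Of 10 macrophage markers only Cd68 and C1qa lay above background, and Ptprc, Csf1r and Adgre1 did not. Cd68 fell by 0.19 in KO (adjusted p = 0.0153, limma), while the mean of the 10 markers ran from 6.53 to 6.63 on the WT arrays and from 6.58 to 6.62 on the KO arrays. The endothelial receptor gene Kdr, 1 of 3 endothelial markers of 6 above background, fell by 0.29 (adjusted p = 0.0425). The part of the cell types so marked in the differences below was not tested. The adipocyte master regulator Pparg fell by 1.27 in KO (adjusted p = 0.00113, limma), Lpl by 0.42 and Fabp4 by 0.33, whereas Plin1 differed by -0.02, Cidec by -0.06, Adipoq by -0.06 and Lep by 0.02 without passing the test. All directions here rest on the genotype labels. In bulk RNA, fewer cells of a kind and less RNA per cell cannot be told apart.

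The differences of the 10 genes, KO minus WT on the log2 scale, ran from -0.17 for Nop10 to 0.07 for Fbl, with a median of -0.09, against a median of 0.00 over all genes. Of the 10 genes, 6 had a lower and 4 a higher mean in KO, where 9510 of all 19938 genes had a lower one. None was called by limma at an adjusted p under 0.05, where 7.31% of all genes were called (3.97% lower and 3.34% higher in KO). At an unadjusted p under 0.05 the count was 3 of 10, all lower in KO, against 20.7% of all genes (11.2% lower and 9.43% higher). The 3 KO arrays lay wholly below the 3 WT arrays for 3 of the 10 genes, against 13.5% of all genes, and wholly above them for 1, against 11.4% (24.9% either way). The list was chosen on the same contrast, so these counts are a description and show neither a change nor its absence.

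**Figure D1:**
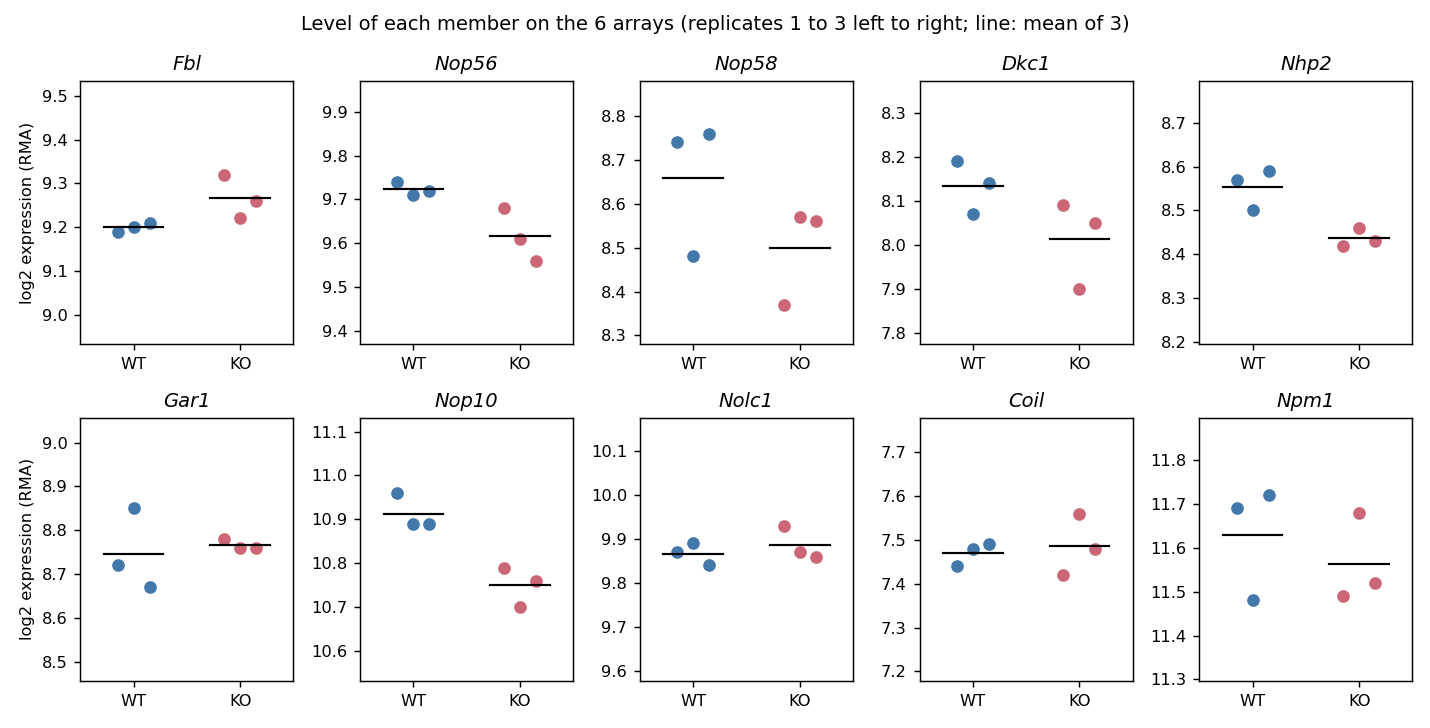
Log2 expression level (vertical axes, RMA, each spanning 0.6) of the 10 genes in 3 WT arrays (blue) and 3 KO arrays (red), with a line at each mean. The KO points sit below all WT points for Nop56, Nhp2 and Nop10, above them for Fbl, and among them for the other 6 genes.

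Among the C/D box proteins, the enzyme and its scaffolds differed in sign. Fbl, the methyltransferase, had levels of 9.19, 9.20 and 9.21 in WT replicates 1 to 3 and of 9.32, 9.22 and 9.26 in KO replicates 1 to 3. All KO arrays were above all WT arrays, but the nearest 2 were only 0.01 apart, and the mean difference was 0.07 (SE 0.04), a level about 4.74% higher, and 0.04 without KO replicate 1. A second probe set of Fbl read 8.83, 8.86 and 8.81 in WT and 8.97, 8.81 and 8.95 in KO. It differed by 0.08 in the same direction, with KO replicate 2 among the WT values.

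Nop56, a scaffold protein that holds fibrillarin in the particle, read 9.74, 9.71 and 9.72 in WT and 9.68, 9.61 and 9.56 in KO. Its 3 WT values were within 0.03 of each other and all KO values were lower, by 0.11 on average (SE 0.04). Nop58, the paralogue that pairs with NOP56, read 8.74, 8.48 and 8.76 in WT and 8.37, 8.57 and 8.56 in KO. WT replicate 2 lay among the KO values, so the larger mean difference of -0.16 had an SE of 0.09. The spread of Nop58 within WT (SD 0.16, n = 3) was as large as the difference itself, and the difference was -0.25 without WT replicate 2 and -0.10 without KO replicate 1.

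For the H/ACA box proteins, 3 of the 4 had lower means in KO. Nop10, the small protein that links dyskerin to NHP2, read 10.96, 10.89 and 10.89 in WT and 10.79, 10.70 and 10.76 in KO. All 3 KO arrays were lower, with a gap of 0.10 between the nearest arrays of the 2 genotypes, the widest gap of the 10 genes. Its means were 10.91 ± 0.04 in WT and 10.75 ± 0.05 in KO (SD, n = 3 each). The difference of -0.17 (SE 0.04) is a level about 10.8% lower, and 6.07% of all genes had a difference at or below it. Nhp2, which binds the guide RNA beside dyskerin, read 8.57, 8.50 and 8.59 in WT and 8.42, 8.46 and 8.43 in KO. Again no KO array reached the WT range, and the difference was -0.12 (SE 0.04).

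Dkc1, the pseudouridine synthase itself, read 8.19, 8.07 and 8.14 in WT and 8.09, 7.90 and 8.05 in KO. KO replicate 1 overlapped WT replicate 2, and the difference was -0.12 (SE 0.06), or -0.06 without KO replicate 2. Gar1, which joins the particle late and takes the place of the assembly factor NAF1, read 8.72, 8.85 and 8.67 in WT and 8.78, 8.76 and 8.76 in KO. Its KO values lay inside the WT range and were within 0.02 of each other, with a difference of 0.02 (SE 0.05) that was 0.01 without WT replicate 1, 0.07 without WT replicate 2 and -0.02 without WT replicate 3.

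The Cajal body and nucleolar proteins had overlapping groups throughout. Coil read 7.44, 7.48 and 7.49 in WT and 7.42, 7.56 and 7.48 in KO, a difference of 0.02 (SE 0.04). With 1 array left out it ran from -0.02 (KO replicate 2) to 0.05 (KO replicate 1). Nolc1, the Nopp140 chaperone of both snoRNP classes, read 9.87, 9.89 and 9.84 in WT and 9.93, 9.87 and 9.86 in KO, a difference of 0.02 (SE 0.04) that was 0.00 without KO replicate 1 and 0.04 without KO replicate 3. For both genes the genotypes were closer to each other than the arrays within KO.

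Npm1 read 11.69, 11.48 and 11.72 in WT and 11.49, 11.68 and 11.52 in KO, a difference of -0.07 (SE 0.08). WT replicate 2 was the lowest of the 6 arrays and KO replicate 2 lay within 0.01 of WT replicate 1, so the order of the arrays did not follow the genotype. The difference was -0.04, -0.14 and -0.02 with WT replicate 1, 2 or 3 left out, -0.03 without KO replicate 1, -0.13 without KO replicate 2 and -0.01 after quantile normalization again. Another 3 probe sets are annotated to Npm1 together with the gene model Gm15484 and may read near-identical copies. They differed by -0.03, -0.04 and -0.07, and in each of them KO replicate 2 was the highest of all 6 arrays and KO replicate 1 the lowest.

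**Figure D2:**
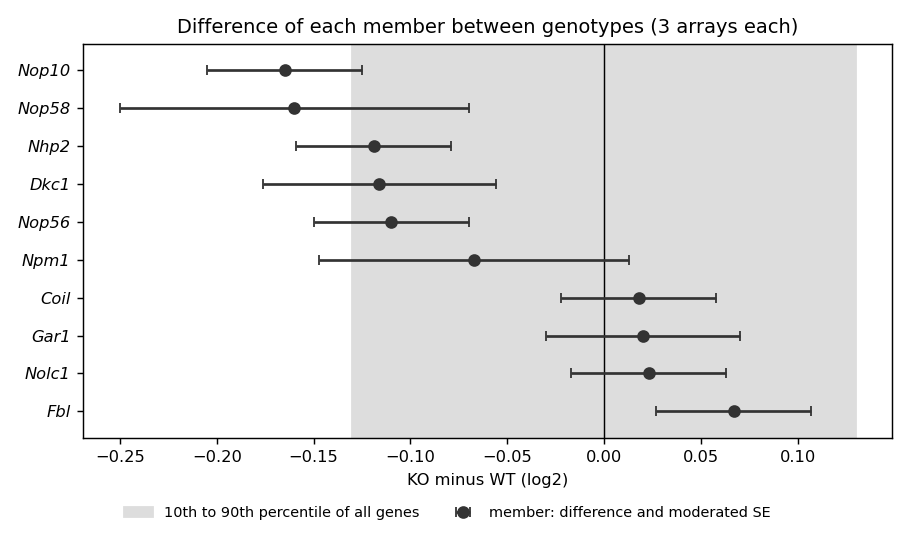
Difference in log2 level, KO minus WT (horizontal axis, 3 arrays each), with its moderated standard error (bars), for the 10 genes. The grey band holds the middle of all genes, from the 10th percentile (-0.13) to the 90th (0.13), and only Nop10 and Nop58 lie outside it.

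**Figure D3:**
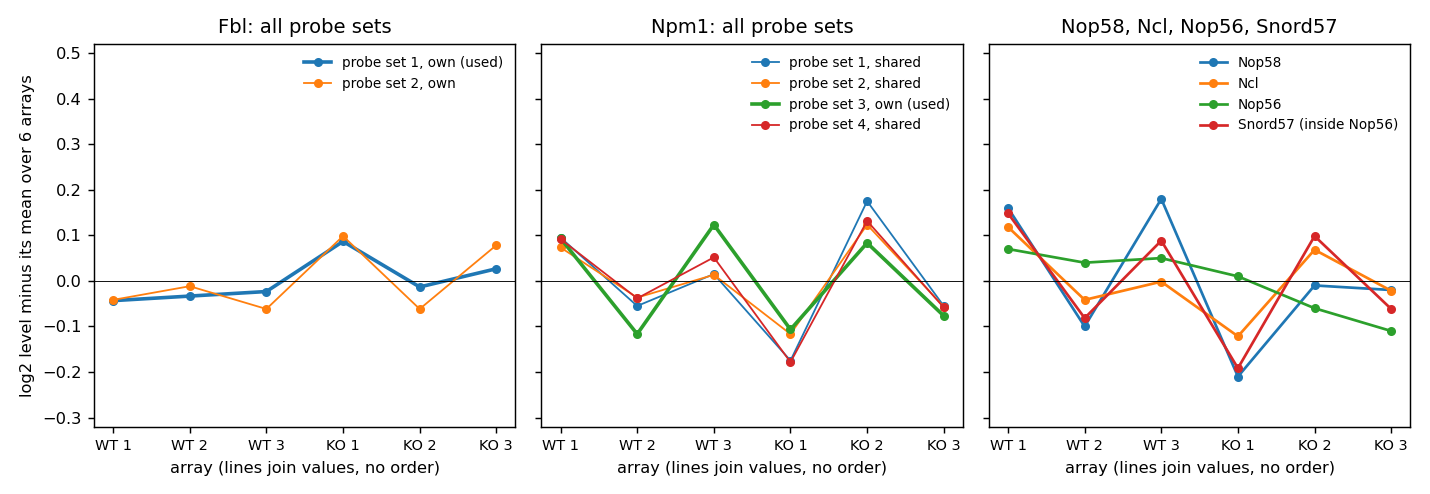
Log2 level on each array minus its mean over the 6 arrays, for both probe sets of Fbl, the 4 of Npm1, and Nop58, Ncl, Nop56 and Snord57. The lines only join the values of a probe set. The probe sets of Npm1 share high values in WT replicate 1 and KO replicate 2 and low values in KO replicate 1.

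The 3 genes whose KO arrays all lay below the WT arrays have upstream regions of unlike composition, which are shown for that reason. The stretches below are RefSeq sequence of GRCm38.p6, read on the + strand, on which all 3 genes lie, ending at the last base before the gene's first annotated base, and capitals mark the ETS core CCGGAA or its complement TTCCGG.
Nop56, chr2:130274162-130274366: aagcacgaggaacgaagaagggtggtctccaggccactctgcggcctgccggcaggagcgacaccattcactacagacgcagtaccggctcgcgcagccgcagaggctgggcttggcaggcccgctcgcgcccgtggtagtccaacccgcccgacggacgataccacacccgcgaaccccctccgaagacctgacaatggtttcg
Nhp2, chr11:51619523-51619772: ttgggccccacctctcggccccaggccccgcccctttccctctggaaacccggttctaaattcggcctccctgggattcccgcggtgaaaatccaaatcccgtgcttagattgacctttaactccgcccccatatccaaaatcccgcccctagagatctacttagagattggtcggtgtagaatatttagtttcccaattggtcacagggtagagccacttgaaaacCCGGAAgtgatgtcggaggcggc
Nop10, chr2:112261676-112261925: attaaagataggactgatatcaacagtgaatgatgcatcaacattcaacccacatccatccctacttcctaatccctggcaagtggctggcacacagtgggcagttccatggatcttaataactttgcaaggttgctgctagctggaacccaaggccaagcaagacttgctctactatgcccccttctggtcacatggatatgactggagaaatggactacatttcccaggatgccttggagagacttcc

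In the 250 bases before the listed start, which for Nop56 and Nop58 run 45 bases past the gene's first base and for Gar1 11, the Nop10 stretch held no CpG dinucleotide, that of Nhp2 held 13 and that of Nop56 held 25. The median over 32851 promoters was 6. Promoters of 8 of the 10 genes were in the table, with a GC content from 41.2% (Nop58) to 65.2% (Nop56) against a median of 52.4%. The MYC E-box CACGTG, a palindrome, was in 0 of these 8 stretches and in 6.02% of all promoters. The GC box GGGCGG or CCGCCC was in 5 of 8 (Nop56, Nop58, Nhp2, Nolc1 and Coil) and in 32.7% of all. The ETS core, which was picked after the stretches had been read, was in 4 of 8 (Nop58, Nhp2, Gar1 and Nolc1) and in 12.0% of all. Of the 3 genes printed above only Nhp2 had it, 23 bases before the start. Such a match or its lack describes the letters in this window and says nothing of a factor.

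Other proteins of the same particles and of ribosome assembly were read from 6 lists. Over these lists of partners and processing factors, 137 of 142 genes had a probe set of their own. Of these 137, 4 rose and 3 fell while 130 missed the threshold, a called share of 5.11% against 7.31% of all genes, and the median difference was -0.03. At an unadjusted p under 0.05 the share was 25.5% (35 genes, 23 lower and 12 higher) against 20.7%, and the arrays of the genotypes did not overlap for 31.4% (27 lower and 16 higher) against 24.9%. With WT replicate 1, 2 or 3 left out, 0, 0 and 0 of the 137 were called higher and 0, 3 and 0 lower. With KO replicate 1, 2 or 3 left out, 1, 1 and 0 were called higher and 1, 1 and 0 lower. Each of the 7 called genes missed the threshold in 4 to 9 of 13 alternative settings.

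Among 10 C/D box partners and assembly factors, 1 rose and none fell, a called share of 10.0% against 7.31% of all genes. Ruvbl2, an ATPase of the R2TP complex that loads the core proteins, read 9.39, 9.39 and 9.40 in WT and 9.63, 9.53 and 9.59 in KO, a rise of 0.19 (SE 0.04, adjusted p = 0.0272, limma). It missed the threshold in 6 of 13 alternatives, with adjusted p-values up to 0.133. Its partner ATPase Ruvbl1 differed by -0.06 (adjusted p = 0.601). Snu13, the protein that first binds the kink of a C/D guide, differed by -0.10 (adjusted p = 0.189) and Rrp9, specific to the U3 particle, by -0.03 (adjusted p = 0.758).

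Of 6 measured H/ACA assembly and telomerase factors none was called by limma, also none at an unadjusted p under 0.05. Naf1, which holds the place of GAR1 in the immature particle, differed by 0.16 (adjusted p = 0.307) with KO values from 8.12 to 8.42. Shq1, the chaperone of dyskerin, differed by 0.12 (adjusted p = 0.281). Wrap53, which brings guides to the Cajal body, differed by -0.04 (adjusted p = 0.525).

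Of 22 Cajal body and snRNP assembly factors 1 rose and none fell, a called share of 4.55% against 7.31% of all genes. Zpr1, a zinc finger protein that binds the SMN complex, read 9.99, 9.98 and 10.00 in WT and 10.13, 10.20 and 10.19 in KO, a rise of 0.18 (SE 0.03, adjusted p = 0.0274, up to 0.144 over 13 alternatives). Smn1, the gene of the SMN protein, differed by -0.06 (adjusted p = 0.769). None of 21 genes of nucleolar organisation and RNA polymerase I was called by limma, with 4 at an unadjusted p under 0.05. Ncl, the abundant nucleolar protein nucleolin, differed by -0.05 (adjusted p = 0.738), Tcof1, which links transcription and processing of ribosomal RNA, by -0.07 (adjusted p = 0.516), and the polymerase I factor gene Ubtf by -0.01 (adjusted p = 0.855).

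Processing factors of the small subunit had 1 fall among 38 measured genes (2.63%, against 7.31% of all genes called) and a median of -0.06. Utp6, a component of the U3 processome, read 8.07 on each WT array and 7.73, 7.85 and 7.76 in KO, a fall of 0.29 (SE 0.04, adjusted p = 0.0107, up to 0.0715 over 13 alternatives). Equal values within a group can come from the median polish of RMA, so the SD of 0.00 is no measure of precision. Of 40 large subunit factors 2 rose and 2 fell, a called share of 10.0% against 7.31% of all genes. The GTPase Gtpbp4 fell by 0.18 (adjusted p = 0.0416) and Rsl24d1 by 0.22 (adjusted p = 0.0441), while Nol9, an RNA kinase, rose by 0.16 (adjusted p = 0.0428) and Rrp1 by 0.19 (adjusted p = 0.0491). Over 13 alternatives their adjusted p-values ran from 0.00827 to 0.183.

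**Figure D4:**
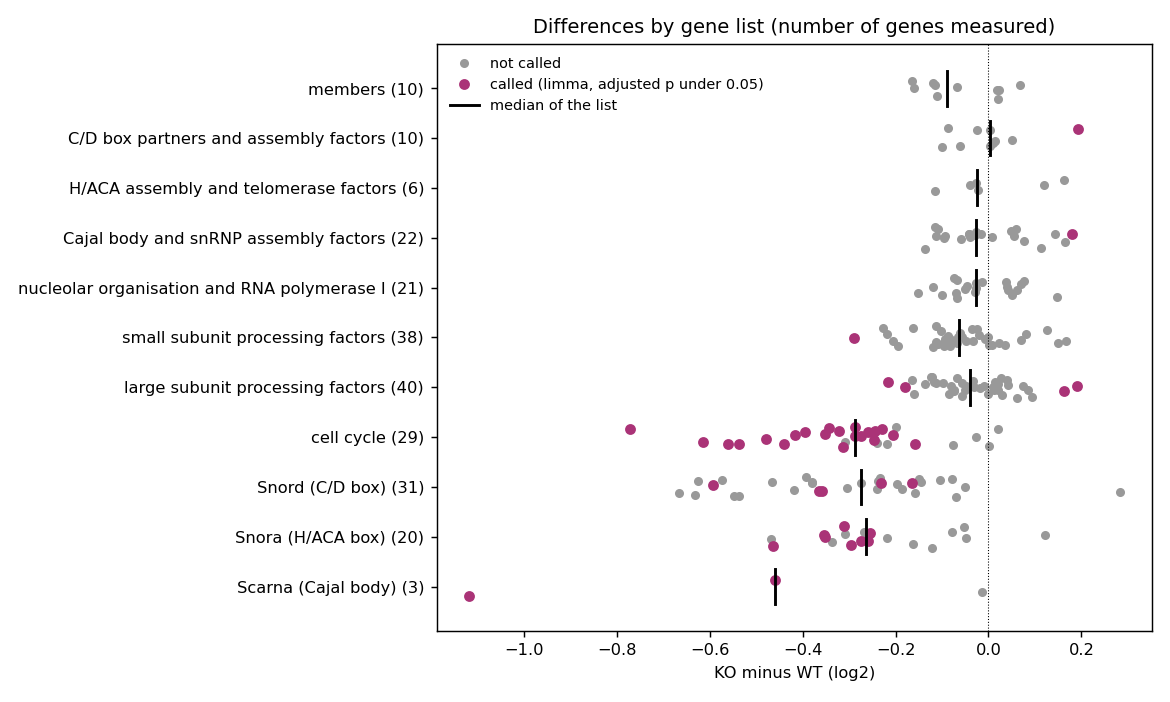
Difference in log2 level, KO minus WT (horizontal axis), of every measured gene in 11 lists (rows, with the number of genes), with called genes in purple and the list median as a black line. The protein lists centre near 0, from -0.09 to 0.00, whereas the medians of the cell cycle list and of the 3 small RNA classes lie between -0.26 and -0.46.

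The small RNAs that these proteins carry are read by probe sets of their own for 54 genes. Of these, 15 fell, none rose by limma and 39 did not pass the test, a share called lower of 27.8% against 3.97% of all genes. At an unadjusted p under 0.05, 35 were lower and 2 higher. C/D box RNAs (Snord symbols) had 5 falls among 31 genes and a median of -0.27. H/ACA box RNAs (Snora) had 8 among 20 and a median of -0.26, and Cajal body RNAs (Scarna) 2 among 3. No test compares these values with those of the proteins. The count of 15 was 4, 11 and 2 with WT replicate 1, 2 or 3 left out, and 7, 6 and 8 with KO replicate 1, 2 or 3 left out. Of the 54, 40 lay above background. The sources used here do not say whether such probe sets read the mature RNA, its precursor or the host's intron.

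Scarna13, a Cajal body RNA, read 11.28, 11.27 and 11.27 in WT and 10.16, 10.10 and 10.21 in KO. It fell by 1.12 (SE 0.04, adjusted p = 0.000216, limma) and passed in all 13 alternatives. Scarna8 fell by 0.46 (adjusted p = 0.0202, lost in 6 of 13). Among C/D box RNAs Snord14e fell by 0.59 (adjusted p = 0.00263), Snord104 by 0.36 (adjusted p = 0.00731) and Snord95 by 0.23 (adjusted p = 0.0404). Their calls were lost in 1, 2 and 6 of 13 alternatives. Among H/ACA box RNAs Snora23 fell by 0.35 (adjusted p = 0.0126), Snora73b by 0.26 (adjusted p = 0.0146) and Snora16a by 0.36 (adjusted p = 0.0181). Here calls were lost in 4, 5 and 5 of 13.

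Some of the 10 genes also have small RNA genes within their coordinates. The RefSeq gene table places 5 small RNA genes (classed as snoRNA, scaRNA, guide RNA or snRNA) inside Nop56, 4 inside Nop58 and 1 inside Dkc1. Of these 10 only Snord57, inside Nop56, had a probe set of its own. The table gives no strand for it, and strands were not compared for any of them. Snord57 read 12.41, 12.18 and 12.35 in WT and 12.07, 12.36 and 12.20 in KO, a difference of -0.10 (adjusted p = 0.586). Its groups overlapped, while those of Nop56, in which it lies, did not. Of 16 snoRNA host genes listed without a stated protein, 5 had a probe set of their own, with 1 call (20.0%, against 7.31% of all genes). Of these, Snhg5 fell by 0.21 (adjusted p = 0.0383), a call that was lost whichever array was left out.

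Genes of the MYC network, which lie outside the particles, were read from a separate list, chosen with earlier results of these data known. Myc, the transcription factor that drives many nucleolar genes, differed by 0.00 on the log2 scale (SE 0.03, adjusted p = 0.999), with levels of 11.55, 11.55 and 11.53 in WT and 11.60, 11.52 and 11.52 in KO. Of 12 genes of the MYC network 2 rose and 1 fell, a called share of 25.0% against 7.31% of all genes. Mxd1, a repressor that competes for the partner MAX, rose by 0.36 (SE 0.03, adjusted p = 0.00317) and the glucose-responsive factor gene Mlxip by 0.21 (adjusted p = 0.0172), and Mxd3 fell by 0.23 (adjusted p = 0.0219). Mxd1 lost its call only with the replicate block (adjusted p = 0.0529, against 0.000467 to 0.0529 over 13 alternatives), Mlxip in 5 and Mxd3 in 6 of 13. With WT replicate 1, 2 or 3 left out, 1, 2 and 1 genes of the network were called higher and none lower. With KO replicate 1, 2 or 3 left out, 1, 1 and 2 were called higher and 0, 0 and 1 lower.

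Cell cycle genes changed in the same cultures. Of 29 measured cell cycle genes 21 fell and none rose, a called share of 72.4% against 7.31% of all genes. This list was chosen with earlier results of these data known, so the share is a description. The list means were 9.39 to 9.48 on the WT arrays and 9.11 to 9.15 on the KO arrays. Mki67, the proliferation marker, fell by 0.77 (adjusted p = 0.00305), Top2a, which untangles replicated DNA, by 0.61 and the spindle gene Nusap1 by 0.54 (adjusted p = 0.00305 each). When probe sets were averaged the difference of Top2a was -0.30 and lost its call (adjusted p = 0.143). The replicate block ended the calls of all 3 genes (adjusted p = 0.0506 each). The count of 21 was 11, 17 and 7 with WT replicate 1, 2 or 3 left out, and 15, 12 and 13 with KO replicate 1, 2 or 3 left out. On the same arrays the mean level over the 10 snoRNP and Cajal body genes was 9.26 to 9.31 in WT and 9.22 to 9.23 in KO. Over all genes it was 7.70 to 7.73 in WT and 7.71 to 7.73 in KO. Over the 137 pathway genes it was 8.73 to 8.79 in WT and 8.72 to 8.75 in KO. The 10 genes were chosen on this contrast, so their means are a description. The part of the cell cycle genes in the differences of these genes was not tested.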

How the data were processed

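The 6 arrays were compared as deposited. The authors' deposited table holds log2 values. RMA, Partek and Affymetrix Expression Console are the tools listed in the submitters' processing notes, with no version. RMA forces all arrays onto one distribution and fits each probe set by median polish, so a shift of the whole transcriptome is lost. Of 35556 probe sets, the platform annotation, which can be old, gave 21789 exactly 1 symbol. RefSeq's mouse gene table (GRCm38.p6) held the gene identifiers of 21698 and gave their present symbols, and each of 19938 genes took its probe set with the highest mean. KO was compared with WT over all genes with limma 3.58.1 in R 4.3.3 (lmFit, eBayes, two-sided, no covariates), with Benjamini-Hochberg adjustment over all genes; the fit was tested on simulated data. Arrays give no read depth, and their number limits the precision.

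Members and lists were chosen with earlier results of these data known. All 10 members were given. Of each other list the 3 called genes with the smallest p in each direction were named, with Snu13, Rrp9, Naf1, Shq1, Wrap53, Smn1, Ruvbl1, Ruvbl2, Ncl, Tcof1, Ubtf, Myc and Mki67 always named, and marker genes were named beside the check of the cell type. Small RNA genes were named by the same rule in each class, with those inside a member. Alternatives were 2 other scalings, a filter on dim genes, the mean of probe sets, array weights, a variance trend, the replicate number as a block and each array left out.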

Additional observations from a re-analysis of the deposited data

How the results depend on the processing

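The directions of 8 of the 10 members held in all 13 alternatives, and those of Gar1 and Coil, both near 0, each turned in 1 fit without an array. Leaving out dim genes, the variance trend and the replicate block do not alter the difference itself, so no direction could turn there. Averaging probe sets could move only Fbl, the 1 member with a second probe set of its own. The members' median difference of -0.089 was -0.053 after quantile normalization again, -0.056 after cyclic loess, -0.12 with array weights, and -0.128 to -0.06 when 1 array was left out. The count of members called lower was 1 without dim genes, 1 with a variance trend, 3 with array weights and 0 otherwise. In the same order these fits called 1227, 1255 and 1814 genes lower in all, against 791 of 19938 in the main fit. The fit without dim genes tested only the 13090 genes above background. The weights gave WT replicate 3 the value 7.41 and the other arrays 0.524 to 1.19.

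Over all genes 1457 were called, 3418 with array weights, 2196 with a variance trend and 189 to 932 when 1 array was left out. Without dim genes 2192 were called, where only the 13090 genes above background were tested. The split of 666 higher and 791 lower became 862 and 639 after quantile normalization again and 859 and 667 after cyclic loess. Pathway genes called higher and lower, 4 and 3, were 7 and 7 without dim genes and 11 and 15 with array weights, 9 were lower with a variance trend, and the ranges were 0 to 1 and 0 to 3 when 1 array was left out. Small RNA genes called higher, 0, were 1 after either scaling or with a variance trend and 2 with array weights, and the 15 called lower were 2 to 11 when 1 array was left out. Dropping an array leaves fewer samples; the cause of the other shifts was not tested.

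Same-numbered arrays did not deviate together (correlations of -0.30, -0.26 and -0.02). With so few arrays, these values cannot decide whether same-numbered WT and KO cultures were prepared together, and the labels do not say. With the replicate block 52 genes were called over all genes, 0 pathway genes higher, 0 lower and 1 small RNA gene lower. The cell cycle count of 21 became 0 and the MYC network counts of 2 and 1 became 0 and 0. No array correlated best with the array of its own number in the other genotype.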

Other observations

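The order of the arrays within a genotype was alike in several genes, as seen after their values were known. Nop58, Nhp2 and Npm1 each had WT replicate 2 as the lowest WT array and KO replicate 2 as the highest KO array. That order held in 3 of the 10 members, in 31 of 137 pathway genes (22.6%) and in 2387 of 19938 genes (12.0%). Snord57 shows it too, and Nop56, in which it lies, does not, with KO replicate 1 the highest KO array. The arrays share their preparation, genes are not independent replicates, and no test was made of this order.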
